A study of Mus musculus with 9 samples.

Results

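The Notch ligands, receptors and targets measured here were 10 mouse genes, namely Jag1, Jag2, Dll1 and Dll4, Notch1 to Notch4, Hes1 and Hey1. Their probe sets were found by gene symbol, updated by Entrez identifier, in the value table of 1-colour Affymetrix whole-transcript arrays. All 10 genes were measured, each by a single probe set, of 19938 genes in all. The lines were DR500, MR20 and the parental 4T1, a mouse mammary carcinoma cell line, with RNA from 3 wells of each and 9 arrays in all. DR500 cells are 4T1 cells that survived doxorubicin, an anthracycline, raised in steps to 500 ng/ml. The treatment fields of the DR500 samples name methotrexate, while their protocol and the paper name doxorubicin, which is used here. MR20 cells are 4T1 cells that survived methotrexate, a folate antagonist, at 20 µg/ml by the labels. The paper states 20 ng/ml instead, and this conflict between labels and paper was not resolved here. Both selected lines then recovered without drug, and untreated 4T1 cells, kept beside the MR20 selection, were the control. The extraction notes of DR500 name 4T1 cells labelled WTR- in place of these controls, and arrays of WTR- cells were not analysed here. The surviving cells of a selection were kept together as a line, so the wells are replicates of a line and not of a selection, and p-values here reflect the variation from well to well, which may be technical.

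Notch is a signaling system between touching cells. A ligand of the Jagged or Delta-like type on 1 cell binds a Notch receptor on its neighbour, and endocytosis of the ligand exposes the receptor to ADAM proteases and then to γ-secretase. The freed intracellular domain enters the nucleus, joins the DNA-binding protein RBPJ and a Mastermind coactivator, and turns on repressor genes of the Hes and Hey families. In the mammary gland Notch takes part in the fate of luminal cells, and Jag1 and Notch1 are among its members most studied in breast cancer.

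The genes that changed more than 2-fold against 4T1 were Jag1, Dll4 and Notch1. The 250 bases before their transcription starts are shown because these are the promoters of the genes on which the results turn. They come from RefSeq on build GRCm38.p6, at chr2:137116521-137116770 on the minus strand for Jag1, chr2:119325534-119325783 on the plus strand for Dll4 and chr2:26503823-26504072 on the minus strand for Notch1. Promoters of 8 of the 10 genes were listed, without Hes1 and Hey1. Capitals mark matches, on either strand, to the RBPJ core TGGGAA, the Hes-bound N box CACNAG, the E box CANNTG or the GC box GGGCGG.
Jag1: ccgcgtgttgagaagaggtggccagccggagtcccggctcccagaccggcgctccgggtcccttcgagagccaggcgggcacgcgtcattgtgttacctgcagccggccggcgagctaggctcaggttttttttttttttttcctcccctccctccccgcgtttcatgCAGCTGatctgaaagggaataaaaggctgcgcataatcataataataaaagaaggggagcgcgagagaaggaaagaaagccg
Dll4: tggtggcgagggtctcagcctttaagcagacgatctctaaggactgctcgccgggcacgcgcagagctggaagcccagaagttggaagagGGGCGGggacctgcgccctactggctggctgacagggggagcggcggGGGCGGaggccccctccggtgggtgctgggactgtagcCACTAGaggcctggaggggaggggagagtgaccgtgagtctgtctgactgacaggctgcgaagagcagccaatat
Notch1: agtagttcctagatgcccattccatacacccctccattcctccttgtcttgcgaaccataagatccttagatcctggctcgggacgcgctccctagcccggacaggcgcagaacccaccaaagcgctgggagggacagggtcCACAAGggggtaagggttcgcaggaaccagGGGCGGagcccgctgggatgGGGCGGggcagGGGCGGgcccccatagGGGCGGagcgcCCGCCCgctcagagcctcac
The Jag1 promoter held 1 E box and no GC box in this window. The Dll4 promoter held 2 GC boxes and 1 N box, and that of Notch1 held 5 GC boxes and 1 N box. None of the 8 genes' windows held the RBPJ core. Of 32851 mouse promoter windows of this length, 21.6% held the RBPJ core, 36.7% the N box, 66.2% the E box and 32.7% the GC box. N stands for any base, and a match to a motif is a run of letters, not a measured binding site.

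Values are log2 expression after the authors' robust multi-array normalization, so a difference of 1 is a 2-fold change. The 3 lines were fitted together with limma, p-values were corrected over all 19938 genes by the method of Benjamini and Hochberg, and a gene rose or fell where its adjusted p was under 0.05. Errors of fold changes are standard errors (SE) from limma, and intervals are 95% confidence intervals. Precision is limited by having 3 arrays a line, at which the smallest p of an exact permutation test is 0.1. The medians of the arrays lay between 6.24 and 6.38. Array values correlated at 0.992 to 0.997 within a line, at 0.966 to 0.980 between DR500 and 4T1 and at 0.986 to 0.988 between MR20 and 4T1, across probe sets. The DR500 samples were labelled in another style than the others and array batches, and whether all arrays were normalized in 1 run, were not given in the sources used here, so a batch of the DR500 arrays and the line cannot be told apart.

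In DR500 cells, 9 of the 10 genes passed the test against 4T1, 6 of them higher and 3 lower. Among all genes, 41.5% passed in this comparison, 20.2% higher and 21.3% lower, and after a repeated quantile normalization the split of all calls moved to 6096 higher and 3773 lower, against 4034 and 4239. In MR20 cells, 3 genes rose and 1 fell against 4T1, where 15.4% of all genes were higher, 17.1% lower and 32.5% called in all. These shares include dim genes. A filter on dim genes kept 11288 genes, without Notch4 and Hey1. In DR500, 3544 of these were then higher and 4274 lower, with 4 higher and 3 lower among those of the 10 genes that were kept. In MR20, 3241 were higher and 3581 lower, with 2 higher and 2 lower among those of the 10 genes that were kept. Between the selected lines, 6 genes were higher and 3 lower in DR500 than in MR20, where 21.2% of all genes were higher, 20.6% lower and 41.9% called in all. Changes over 2-fold were seen in 2 genes in DR500 (5.56% of all genes), in 2 genes in MR20 (2.49%) and in 4 genes between the selected lines (6.1%). The arrays of DR500 and 4T1 did not overlap in 9 of the 10 genes, against 50.1% of all genes, and those of MR20 and 4T1 in 5, against 45.1%. Those of DR500 and MR20 did not overlap in 8 genes, against 49.8%. The median absolute log2 fold change was 0.61 over the 10 genes in DR500, against 0.19 over all genes. In MR20 it was 0.21 over the 10 genes, against 0.13 over all genes. Both selected lines were set against the same 4T1 arrays, so their changes are not independent.

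**Figure D1:**
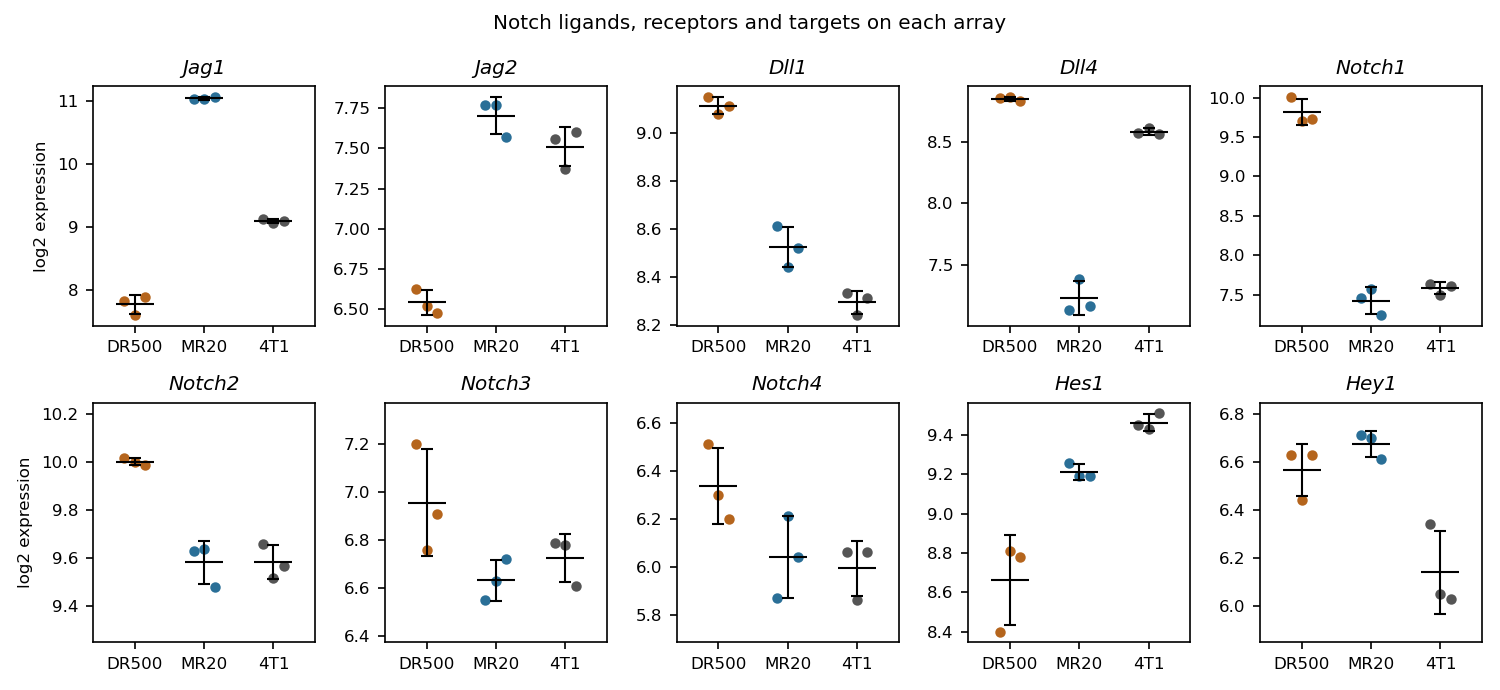
Log2 expression (y axis, a scale of its own in each panel) of the 10 genes in DR500, MR20 and 4T1 cells (x axis), with a point for each array and bars for the mean and SD of 3 arrays. Jag1 and Dll4 separate the 3 lines in opposite orders, and Notch1 is high in DR500 only, at 9.71 to 10.01 against 7.24 to 7.64 on the other 6 arrays.

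Jag1 encodes a Jagged ligand and had the largest difference among the 10 genes. Its log2 values were 7.83, 7.60 and 7.88 in DR500, 11.04, 11.03 and 11.07 in MR20, and 9.13, 9.06 and 9.10 in 4T1. No 2 lines overlapped, MR20 lying above 4T1 and DR500 below it. Against 4T1, Jag1 rose by 1.95 in MR20 (SE 0.0734, 3.88-fold, adjusted p = 3.27e-08 from limma), the rise of rank 93 among all genes. It fell by 1.32 in DR500 (SE 0.0734, adjusted p = 2.54e-07). The selected lines themselves differed 9.71-fold, with a log2 fold change of -3.28 for DR500 against MR20 (SE 0.0734, adjusted p = 3.26e-10). Jag2, the other Jagged ligand, had values of 6.63, 6.52 and 6.48 in DR500, 7.77, 7.77 and 7.57 in MR20, and 7.56, 7.37 and 7.60 in 4T1. All DR500 arrays were low, while those of MR20 and 4T1 overlapped. Jag2 fell by 0.96 in DR500 against 4T1 (SE 0.0841, 1.95-fold, adjusted p = 6.77e-06), and was 2.23-fold lower in DR500 than in MR20 (adjusted p = 1.56e-06). In MR20 the difference of Jag2 was 0.19 (interval 0.01 to 0.38) and did not pass (adjusted p = 0.115 from limma, 0.0243 to 0.381 over the alternatives). It passed after a repeated quantile normalization and without MR20 replicate 3 (adjusted p = 0.0476).

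The Delta-like ligands moved otherwise. Dll4, a ligand best known from sprouting vessels, had log2 values of 8.85, 8.86 and 8.83 in DR500, 7.14, 7.39 and 7.17 in MR20, and 8.57, 8.61 and 8.56 in 4T1. The order of the lines was the reverse of that for Jag1, with MR20 lowest and DR500 highest and no overlap between lines. Dll4 fell by 1.35 in MR20 against 4T1 (SE 0.0702, 2.55-fold, adjusted p = 4.24e-07), the fall of rank 80 among all genes, and rose by 0.27 in DR500 (SE 0.0702, 1.20-fold, adjusted p = 0.0111). It was 3.06-fold higher in DR500 than in MR20 (log2 1.61, SE 0.0702, adjusted p = 3.34e-08). Dll1, which encodes the ligand of early Notch signaling in the embryo, had values of 9.15, 9.08 and 9.11 in DR500, 8.61, 8.44 and 8.52 in MR20, and 8.33, 8.24 and 8.31 in 4T1. Every array of both selected lines was above every 4T1 array. Dll1 rose by 0.82 in DR500 (SE 0.0601, 1.77-fold, adjusted p = 1.86e-06) and by 0.23 in MR20 (SE 0.0601, 1.17-fold, adjusted p = 0.0125). For MR20 the adjusted p was 0.0584 when 4T1 replicate 2 was left out and 0.0509 when MR20 replicate 1 was, neither under 0.05. Dll1 was also higher in DR500 than in MR20, by 0.59 (SE 0.0601, adjusted p = 1.93e-05).

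Jag1 and Dll4 can be set against each other within an array, as the log2 difference of the pair relative to its mean in 4T1. That difference was -1.53, -1.77 and -1.47 in DR500, 3.39, 3.13 and 3.39 in MR20, and 0.05, -0.07 and 0.02 in 4T1. It shows unequal change of the pair, not which transcript was more abundant, since levels of different probe sets are not comparable. For Jag1 against Jag2 the same quantity was -0.38, -0.50 and -0.19 in DR500, 1.69, 1.68 and 1.92 in MR20, and -0.02, 0.11 and -0.09 in 4T1. The pair lay nearer to its 4T1 value on the DR500 arrays than on the MR20 arrays, a difference that was not tested.

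**Figure D2:**
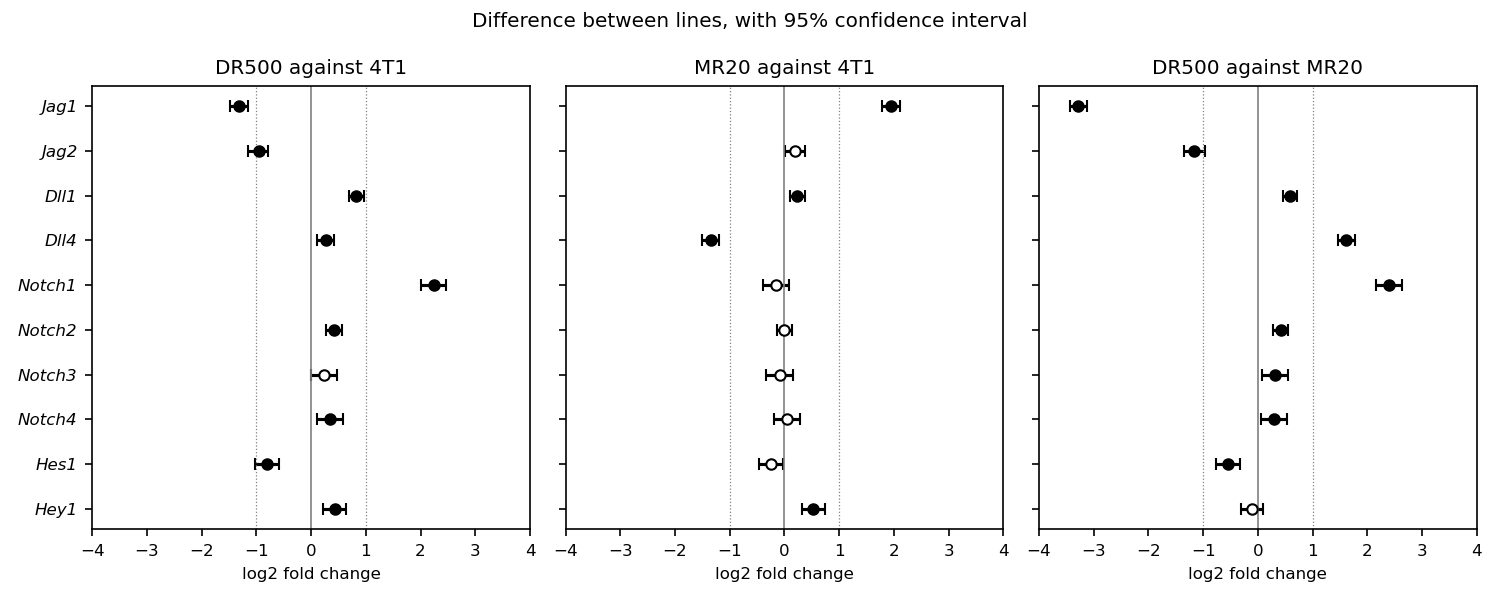
Log2 fold change (x axis) of each gene (y axis) for DR500 against 4T1, MR20 against 4T1 and DR500 against MR20, with 95% confidence intervals from limma. Filled points have an adjusted p under 0.05, open points do not, and dotted lines mark 2-fold. Jag1 lies at -1.32, 1.95 and -3.28 in the 3 panels, and Dll4 at 0.27, -1.35 and 1.61.

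Of the receptors, Notch1 changed most. Its log2 values were 10.01, 9.71 and 9.73 in DR500, 7.46, 7.57 and 7.24 in MR20, and 7.64, 7.49 and 7.61 in 4T1. The DR500 arrays stood apart from both other lines, which overlapped each other. Notch1 rose by 2.24 in DR500 against 4T1 (SE 0.104, 4.72-fold, adjusted p = 6.87e-08), the rise of rank 89 among all genes. In MR20 it differed from 4T1 by -0.16 (interval -0.39 to 0.08, adjusted p = 0.337 from limma). Between the selected lines the difference was 2.39 (SE 0.104, 5.26-fold, adjusted p = 3.35e-08). Notch2, a receptor of the same full-length type, had values of 10.02, 10.00 and 9.99 in DR500, 9.63, 9.64 and 9.48 in MR20, and 9.66, 9.52 and 9.57 in 4T1. It rose by 0.42 in DR500 against 4T1 (SE 0.0633, 1.34-fold, adjusted p = 3.32e-04). In MR20 the difference from 4T1 was 0.00 (interval -0.14 to 0.14, adjusted p = 0.983 from limma). Within an array, the change of Notch1 exceeded that of Notch2 by 2.00, 1.71 and 1.76 in DR500, against -0.16, -0.06 and -0.24 in MR20.

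Notch3 and Notch4 gave weaker differences at lower signal. Notch3, known for its role in vascular smooth muscle and pericytes, had log2 values of 7.20, 6.76 and 6.91 in DR500, 6.55, 6.63 and 6.72 in MR20, and 6.79, 6.78 and 6.61 in 4T1. DR500 replicate 1 was the highest array, and DR500 replicate 2 lay within the 4T1 range. Against 4T1 the difference in DR500 was 0.23 (interval -0.01 to 0.47, adjusted p = 0.124 from limma). It passed with both rescalings of the arrays (0.0278 and 0.0285) and without DR500 replicate 2 (0.0327). Notch3 was higher in DR500 than in MR20 by 0.32 (SE 0.108, adjusted p = 0.0355), which did not pass without MR20 replicate 1 (0.114), MR20 replicate 2 (0.0851) or DR500 replicate 1 (0.0951). That call was lost in 6 of 17 alternatives, among them the fit of only DR500 and MR20 (0.0607) and the test of all probe sets (0.0664). Notch4, known mainly from endothelium, had values of 6.51, 6.30 and 6.20 in DR500, 5.87, 6.21 and 6.04 in MR20, and 6.06, 5.86 and 6.06 in 4T1. It lay under the median of the array on 7 of the 9 arrays. It rose by 0.34 in DR500 against 4T1 (SE 0.107, 1.27-fold, adjusted p = 0.0244), a call lost without 4T1 replicate 2 (0.0958) or DR500 replicate 1 (0.0811). Between the selected lines Notch4 was higher in DR500 by 0.30 (SE 0.107, adjusted p = 0.047), a call lost in 9 of 16 alternatives. These were 6 of the 9 fits without an array, with adjusted p up to 0.171, the fit of only DR500 and MR20 (0.0704), the test of all probe sets (0.0829) and the replicate block (0.0857). In MR20 against 4T1, the differences were -0.09 for Notch3 (interval -0.33 to 0.15) and 0.05 for Notch4 (-0.19 to 0.29), with adjusted p of 0.619 and 0.828 from limma.

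The target genes did not move together. Hes1, a repressor and the most general target of Notch, had log2 values of 8.40, 8.81 and 8.78 in DR500, 9.26, 9.19 and 9.19 in MR20, and 9.45, 9.43 and 9.51 in 4T1. No 2 lines overlapped, 4T1 being highest and DR500 lowest. Hes1 fell by 0.80 in DR500 against 4T1 (SE 0.0983, 1.74-fold, adjusted p = 7.44e-05), and without DR500 replicate 1, the lowest array, the fold change was -0.67. In MR20 it differed from 4T1 by -0.25 (SE 0.0983, adjusted p = 0.0833 from limma). That difference passed in 4 of 17 alternatives, among them the fit without DR500 replicate 1 (adjusted p = 0.00393) and the fit of only MR20 and 4T1 (0.00617). Hes1 was also lower in DR500 than in MR20 by 0.55 (interval -0.77 to -0.33, adjusted p = 0.00102). Hey1, another repressor gene downstream of Notch, had values of 6.63, 6.44 and 6.63 in DR500, 6.71, 6.70 and 6.61 in MR20, and 6.34, 6.05 and 6.03 in 4T1. All arrays of the selected lines were above those of 4T1, and the selected lines overlapped. Hey1 rose by 0.43 in DR500 (SE 0.0915, 1.34-fold, adjusted p = 0.00326) and by 0.53 in MR20 (SE 0.0915, 1.45-fold, adjusted p = 0.00115). The difference of DR500 from MR20 was -0.11 (interval -0.31 to 0.10, adjusted p = 0.379 from limma). The signal of Hey1 was low, and lay under the array median on 3 of the 9 arrays, which were those of 4T1. Both rises were thus measured from a signal under the median.

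A further 72 genes of the Notch machinery, listed by role, were analysed. In DR500, 31 of them rose and 8 fell against 4T1, with a median log2 fold change of 0.18 against 0.07 over all genes, of which 20.2% were higher and 21.3% lower. These shares include dim genes, while the mean of the 72 genes lay at 8.72 to 8.75 on the DR500 arrays. After the filter on dim genes 36 rose and 8 fell, where 3544 of 11288 genes were higher and 4274 lower. After a repeated quantile normalization 47 rose and 8 fell, and the calls over all genes moved as well, to 6096 higher and 3773 lower. In MR20, 18 rose and 13 fell, with a median of 0.02 against -0.01 over all genes, of which 15.4% were higher and 17.1% lower. With the filter on dim genes 20 rose and 13 fell in MR20, where 3241 of 11288 genes were higher and 3581 lower. When arrays were centred on their median 8 fell, and over all genes the lower calls numbered 2737 in place of 3409. Between DR500 and MR20, 27 were higher and 9 lower in DR500, against 21.2% and 20.6% of all genes. Changes over 2-fold against 4T1 were seen in 3 of these 72 genes in DR500, Neurl1b, Ccn3 and Tle1, against 5.56% of all genes. In MR20 they were seen in none, against 2.49% of all genes.

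Genes that act on ligands held the largest change of the pathway. Neurl1b encodes a Neuralized-type ubiquitin ligase, a class that promotes the endocytosis of Notch ligands. Its log2 values were 11.03, 10.93 and 10.92 in DR500, 7.84, 7.84 and 7.76 in MR20, and 7.24, 7.19 and 6.98 in 4T1. DR500 lay far above the others, and MR20 lay above 4T1 without overlap. Neurl1b rose by 3.82 in DR500 (SE 0.0758, adjusted p = 3.05e-10) and by 0.68 in MR20 (SE 0.0758, adjusted p = 7.51e-05), and a dimmer probe set of the gene gave 2.56 and 0.31. Mib1, the ubiquitin ligase most used for ligand endocytosis, had values of 8.25, 8.29 and 8.43 in DR500, 9.24, 9.05 and 9.05 in MR20, and 9.13, 8.97 and 9.01 in 4T1. It fell by 0.72 in DR500 (SE 0.0785, adjusted p = 3.43e-05). Epn2, an epsin of the endocytic coat, rose by 0.59 in DR500 and by 0.58 in MR20. Of 6 endocytosis genes, 2 rose and 1 fell in DR500, and 3 rose in MR20. The shares over all genes were 20.2% higher and 21.3% lower in DR500, and 15.4% and 17.1% in MR20. Among 10 other ligand genes, 2 rose in DR500 and 0 passed in MR20 by limma, where Ccn3 alone had an unadjusted p under 0.05 (0.0265, log2 fold change 0.21). Ccn3, a matricellular protein reported to bind Notch, had values of 10.03, 9.98 and 10.25 in DR500, against 7.85, 7.79 and 7.80 in 4T1, and rose by 2.27 (SE 0.0806, adjusted p = 9.90e-09). Egfl7, a secreted protein with EGF repeats, rose by 0.51 in DR500, and Dlk2, a Delta-like protein without the binding domain of the canonical ligands, was higher in DR500 than in MR20 by 0.45 (SE 0.103, adjusted p = 0.00508).

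**Figure D3:**
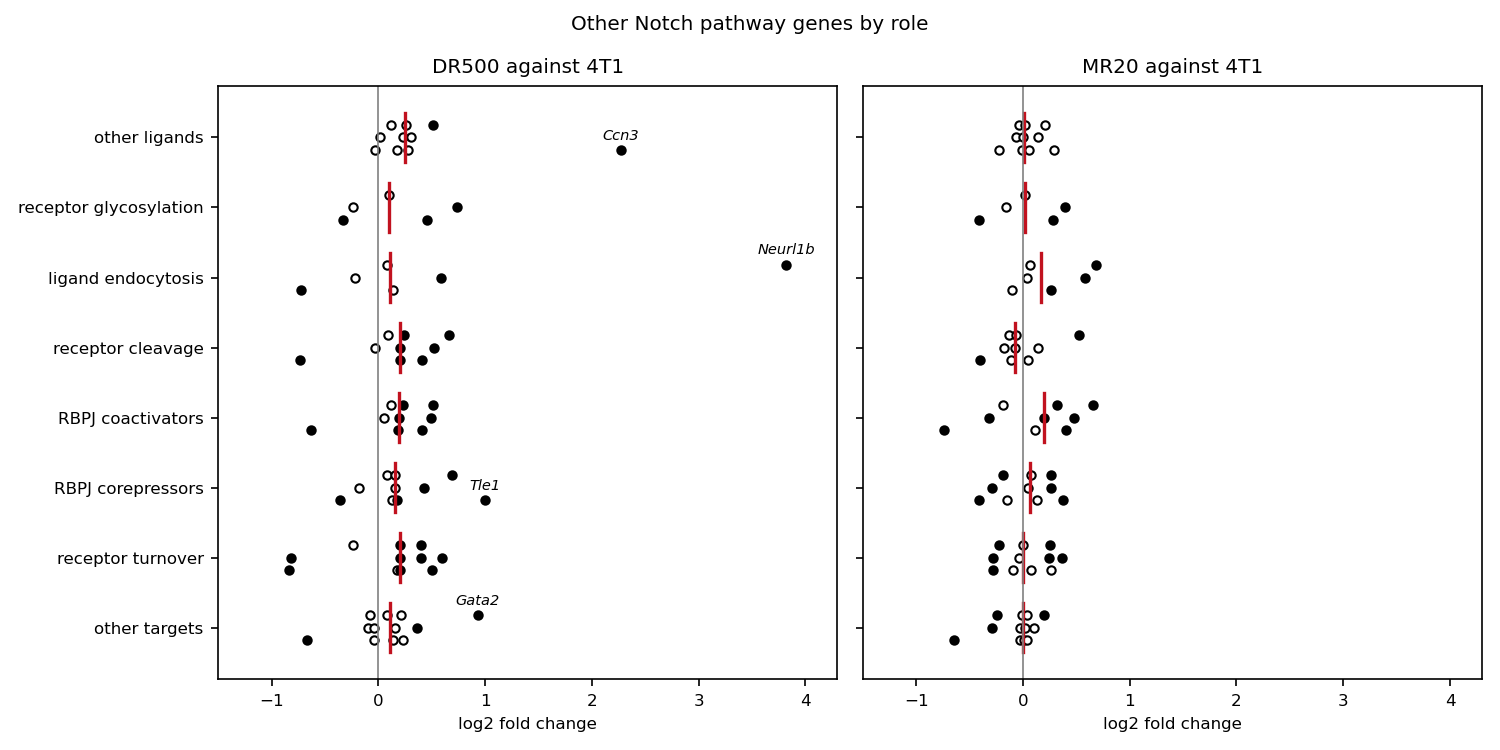
Log2 fold change (x axis) of 72 other Notch pathway genes by role (y axis), for DR500 against 4T1 and MR20 against 4T1. Filled points have an adjusted p under 0.05, open points do not, red bars are medians, and genes beyond 0.9 are named. Neurl1b at 3.82 and Ccn3 at 2.27 stand apart in DR500, and no gene reaches 1 in MR20.

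The enzymes that modify and cut the receptors changed by less than 2-fold, and of 5 glycosylation genes 2 rose and 1 fell in each selected line. Pofut1, which adds the O-fucose that Notch needs, rose by 0.74 in DR500 and by 0.39 in MR20 (SE 0.0564 each). Lfng, a Fringe glycosyltransferase that extends this sugar and tunes the response to Delta-like and Jagged ligands, rose by 0.46 and 0.28. Poglut1, the O-glucosyltransferase, fell by 0.33 in DR500 and by 0.41 in MR20. Of 9 cleavage genes, 6 rose and 1 fell in DR500, and 1 rose and 1 fell in MR20. Over all genes, 20.2% were higher and 21.3% lower in DR500, and 15.4% and 17.1% in MR20. Adam17, a protease that can shed Notch, had log2 values of 10.80, 10.89 and 10.97 in DR500, 10.38, 10.26 and 10.27 in MR20, and 10.33, 10.41 and 10.36 in 4T1. It rose by 0.52 in DR500 (SE 0.0647, adjusted p = 8.32e-05). Furin, which cuts the receptor on its way to the surface, rose by 0.66 in DR500 and by 0.53 in MR20. Psen2, a catalytic subunit of γ-secretase, fell by 0.73 in DR500 (SE 0.0603, adjusted p = 4.43e-06) and by 0.40 in MR20.

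Of 9 genes of the nuclear complex and its coactivators, 6 rose and 1 fell in DR500, and 5 rose and 2 fell in MR20, with Mastermind genes in both directions. Maml3 had log2 values of 8.69, 8.44 and 8.63 in DR500, 7.38, 7.31 and 7.36 in MR20, and 8.05, 8.14 and 8.08 in 4T1. It rose by 0.49 in DR500 (SE 0.0708, adjusted p = 2.20e-04) and fell by 0.74 in MR20 (SE 0.0708, adjusted p = 2.63e-05), the order of lines seen for Dll4. Maml1 rose by 0.66 in MR20 (SE 0.0767) and by 0.23 in DR500, and Maml2 fell by 0.63 in DR500 (SE 0.0860), and its other probe set by 0.89. Rbpj itself, named after its values were seen, measured 12.01, 11.96 and 12.03 in DR500, 11.49, 11.50 and 11.51 in MR20, and 11.84, 11.83 and 11.80 in 4T1. It rose by 0.18 in DR500 (SE 0.0506, adjusted p = 0.0169) and fell by 0.32 in MR20 (adjusted p = 6.47e-04). Of 10 corepressors, 4 rose and 1 fell in DR500, and 3 rose and 3 fell in MR20. For coactivators and corepressors alike, the shares over all genes were 20.2% higher and 21.3% lower in DR500. In MR20 they were 15.4% and 17.1%. Tle1 of the Groucho family, which Hes proteins recruit, rose by 1.00 in DR500 (SE 0.0989, adjusted p = 1.62e-05) and by 0.38 in MR20. Its relative Tle3 rose by 0.69 and 0.26. The histone deacetylase gene Hdac2 fell by 0.36 in DR500.

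Of 11 regulators of receptor turnover, 7 rose and 2 fell in DR500, and 3 rose and 3 fell in MR20. Of 12 further targets, 2 rose and 1 fell in DR500, and 1 rose and 3 fell in MR20. Over all genes, 20.2% were higher and 21.3% lower in DR500, and 15.4% and 17.1% in MR20. The Deltex genes Dtx3 and Dtx4, which encode ubiquitin ligases, fell by 0.84 and 0.82 in DR500 (SE 0.0622 and 0.0574) and by 0.22 and 0.28 in MR20. Numbl, related to the Notch inhibitor Numb, rose by 0.60 in DR500 (SE 0.11). Nrarp, a target gene whose product dampens Notch, had log2 values of 9.21, 9.14 and 9.23 in DR500, 8.75, 8.67 and 8.53 in MR20, and 9.25, 9.34 and 9.30 in 4T1. All MR20 arrays were low, and Nrarp fell by 0.65 in MR20 (SE 0.0668, adjusted p = 4.13e-05). Myc, a target in T cells among many other inputs, fell by 0.67 in DR500 (SE 0.0492, adjusted p = 1.91e-06), and Gata2 rose there by 0.93 (SE 0.0934, adjusted p = 1.79e-05). The targets Hes5, Hes7 and Heyl did not pass in either selected line. Hey2 fell in MR20 by 0.29 (SE 0.0885, adjusted p = 0.0271), with means of 4.35 in MR20 and 4.65 in 4T1, under the medians of the arrays, and it did not pass in DR500 (-0.08, adjusted p = 0.5). Hes5, Hes7, Heyl and Hey2 were named after their values were seen.

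**Figure D4:**
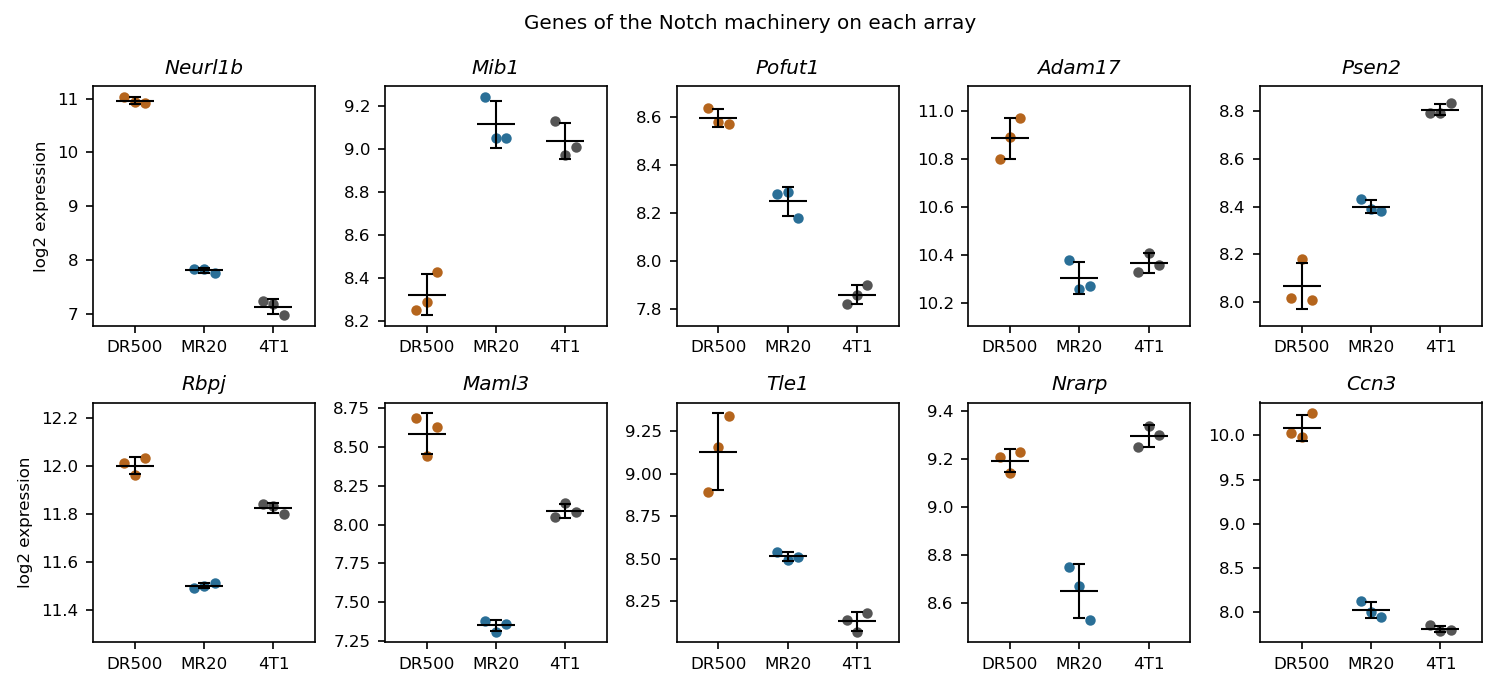
Log2 expression (y axis, a scale of its own in each panel) of 10 genes of the Notch machinery in DR500, MR20 and 4T1 cells (x axis), with a point for each array and bars for the mean and SD of 3 arrays. Neurl1b and Ccn3 are highest in DR500, Rbpj, Maml3 and Nrarp are lowest in MR20, and the choice of panels was made with the values known.

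The genes with the most similar profile were sought by the root mean square difference of centred log2 values over the 9 arrays, for the 3 genes that changed over 2-fold. Nearest to Jag1 were Cxcl2 (0.271), Ube2ql1 (0.279) and Csf2 (0.294), which differed from 4T1 by -1.49, -1.95 and -1.48 in DR500 and by 1.53, 1.74 and 2.35 in MR20. Nearest to Dll4 were Anxa8 (0.101), Nptx1 (0.101) and Mtmr11 (0.141), with 0.30, 0.33 and 0.16 in DR500 and -1.30, -1.20 and -1.34 in MR20. Nearest to Notch1 were Socs3 (0.136), Il17rd (0.153) and Peli2 (0.155), with 2.45, 2.24 and 2.21 in DR500 and 0.07, -0.06 and -0.09 in MR20. The profiles rest on 3 line means, so many genes can share them.

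Markers of the cell types in which these genes are best known were read on the same arrays. For comparison, 41.5% of all genes were called in DR500, 20.2% higher and 21.3% lower. In MR20, 32.5% of all genes were called, 15.4% higher and 17.1% lower. Of 12 endothelial markers, 1 passed in DR500 and 1 in MR20, in each case Eng, by 0.90 and 0.40, and the mean of the list lay at 5.97 to 6.13 in DR500, 5.86 to 5.97 in MR20 and 5.79 to 5.88 in 4T1. The defining markers Pecam1, Cdh5 and Kdr averaged 5.32, 5.63 and 4.96 in DR500 and 5.13, 5.65 and 4.83 in 4T1, under the medians of the arrays. Of 9 pericyte and smooth muscle markers, 4 rose in DR500, Mcam by 1.32 and Des by 0.73 among them, and the mean of the list was 6.34 to 6.50 in DR500, 5.98 to 6.06 in MR20 and 5.92 to 6.07 in 4T1. In MR20, Rgs5 of that list rose by 0.76 and Mcam fell by 0.55. Rgs5 averaged 5.90 in MR20 and 5.14 in 4T1, under the medians of the arrays. Of 11 leukocyte markers, 2 rose in DR500, Ly6g by 2.51 and Ms4a1 by 0.19, with Ptprc at 5.24 in DR500 and 5.17 in 4T1. Ms4a1 averaged 3.79 in DR500 and 3.60 in 4T1, far under the medians of the arrays. In MR20, 0 of the 11 passed by limma, where 2, Ly6g and Ms4a1, had an unadjusted p under 0.05. Of 9 fibroblast markers, 2 rose and 1 fell in DR500, with Pdgfra up by 1.70, Dcn up by 0.56 and Postn lower by a log2 fold change of -0.97. Dcn averaged 5.74 in DR500 and 5.18 in 4T1, and Postn 4.55 and 5.52, all under the medians of the arrays. Of these markers that passed in DR500, Eng, Mcam, Pdgfra and Ly6g lay above the medians there. They averaged 11.48, 10.04, 10.07 and 7.14 in DR500, and 10.58, 8.72, 8.37 and 4.63 in 4T1. In MR20 the fibroblast marker Postn rose by 1.34 (adjusted p = 3.84e-05 from limma), to a mean of 6.86 above the medians, and Pdgfra fell by 0.63. The mean of 12 mammary epithelial markers was 7.64 to 7.89 in DR500, 11.14 to 11.16 in MR20 and 10.92 to 10.97 in 4T1. In DR500, 10 of the 12 fell, Epcam by 4.19 and Cdh1 by 3.84, while Krt8 averaged 13.43 in DR500 and 13.41 in 4T1, so the label of a mammary epithelial line holds for most markers in MR20 and 4T1 but for few in DR500. The part of these marker lists in the DR500 and MR20 results was not tested.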

How the data were processed

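RNA of 3 wells each of DR500, MR20 and 4T1 cells was hybridized to Affymetrix mouse whole-transcript arrays. The authors corrected the background, normalized quantiles and summarised probes by robust multi-array normalization with affy, and deposited log2 values. Versions are not given in the sources used here. The samples were grouped by their titles. Of 35556 probe sets, 21789 with 1 gene symbol were kept, and the brightest by mean over 9 arrays stood for a gene, which left 19938 genes. Limma 3.58.1 in R 4.3.3 fitted a mean per line over all 9 arrays with 6 residual degrees of freedom, without a filter on dim genes, and Benjamini-Hochberg adjustment ran over all genes. The fit was tested on simulated data. The 10 genes and all lists were chosen with earlier results of these data known. All 10 are named, as are, of each pathway list, the 3 genes that changed most by absolute log2 fold change in any comparison they passed. Rbpj and list members in counts of 5 or fewer were named after their values were seen, as were markers. Alternatives were the fit of only 2 lines, a filter on dim genes (highest log2 value over 6.74), repeated quantile normalization, median centring, the mean of a gene's probe sets, all probe sets tested, moderation with trend and robust, the replicate number as a block, and leaving out each array. No 2 columns held identical values, and 0 columns were left unused. Motifs were searched in 250 bases before each RefSeq transcription start.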

Additional observations from a re-analysis of the deposited data

Results flagged for a closer look

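Jag1 and Dll4 passed the test in opposite directions in the selected lines, and the difference between those lines passed too. For Jag1 the difference of DR500 from MR20 was -3.28 (SE 0.0734, adjusted p = 3.26e-10 from limma), with all 3 DR500 arrays below and all 3 MR20 arrays above the 4T1 arrays. For Dll4 it was 1.61 (SE 0.0702, adjusted p = 3.34e-08), with all 3 DR500 arrays above and all 3 MR20 arrays below those of 4T1. Groups of 3 arrays were too small for a check of outlying arrays.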

How the results depend on the processing

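Over 17 alternatives, Jag1, Dll4, Notch1 and Dll1 kept direction and call in DR500 against 4T1 and against MR20, and Jag1 and Dll4 also in MR20 against 4T1. Jag1 ranged from 1.94 to 2.00 in MR20 and from -1.38 to -1.22 in DR500, Dll4 in MR20 from -1.43 to -1.30, and Notch1 in DR500 from 2.14 to 2.32. In MR20, 2 genes fell instead of 1 with only the 2 lines compared, with the filter on dim genes and with trend and robust moderation, Hes1 being added each time. With arrays centred on their median, 8 instead of 13 pathway genes fell in MR20, and with repeated quantile normalization 47 instead of 31 rose in DR500. The cause was not tested. Without single arrays, 1 to 2 of the 10 genes fell in MR20, 2 being without DR500 replicate 1. Values near 0 turned sign in MR20 against 4T1: Notch2 was 0.02 and 0.04 with repeated quantile normalization and median centring, and 0.03 and 0.05 without 4T1 replicate 1 and MR20 replicate 3, within -0.03 to 0.05 over all single arrays left out. Notch4 was -0.02 and -0.04 without 4T1 replicate 2 and MR20 replicate 2, within -0.04 to 0.13. The filter on dim genes left out Notch4 and Hey1. Deviations from the line means correlated at -0.309 to 0.327 between arrays of equal replicate number. Arrays of unequal number were not compared, so this cannot decide whether replicate numbers pair the arrays. With the replicate block, 3 of the 10 genes rose and 1 fell in MR20, 5 rose and 3 fell in DR500 (Notch4 not passing, adjusted p = 0.0525), and 4 were higher and 3 lower in DR500 than in MR20 (Notch3 and Notch4 not passing, 0.0531 and 0.0857). With only the 2 lines compared, and with all probe sets tested, 4 instead of 6 of the 10 genes were higher in DR500 than in MR20, Notch3 and Notch4 being lost. The other lost or gained calls of Notch3, Notch4, Jag2, Dll1 and Hes1 stand beside their results. No depths apply to arrays, and background was not measured here, so low signals such as those of Notch4 and Hey1 limit their fold changes.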
